A study of Mus musculus with 50 samples.

Results

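Hypoxia-inducible genes are transcribed more when oxygen is scarce, mostly through the hypoxia-inducible factor (HIF). The 10 described here, Vegfa, Adm, Ldha, Pgk1, Pdk1, Egln3, P4ha1, Bnip3, Ddit4 and Ankrd37, were chosen by name and matched through the GENCODE vM21 annotation. They were chosen with earlier results of these data known. They are 10 of the 55487 genes in the files and 10 of the 21897 protein-coding ones, and all 10 passed the filter on low counts. Messenger RNA of frontal cortex was sequenced from wild-type mice and from mice heterozygous for the Setd1a tm1d loss-of-function allele (Setd1a+/-), 5 per genotype and age. The ages were embryonic days 14 and 18 (E14, E18) and postnatal days 7, 35 and 70 (P7, P35, P70). Setd1a encodes a methyltransferase of histone H3. The labels give the strain of both genotypes as C57BL/6NTac, and the study's methods describe a mixed background with C57BL/6J, male animals, and embryos slightly older than the whole-day ages of the labels. The 50 libraries held 35507165 to 43907318 counts each. The allele is present in every cell of the animal, so the groups do not separate cortex from placenta, circulation or other organs. Embryonic tissue was taken as frontal brain regions, and its borders may differ from those of the postnatal cortex.

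Libraries of a few animals stood apart. Replicate 5 of the E14 wild type and replicate 2 of the E18 wild type held 60159 and 55644 counts of Xist, the RNA of the inactive X chromosome, and 0 and 11 counts of Y-linked genes, which goes against the described sex. Replicate 2 of the P7 wild type had a mean Spearman correlation of 0.978 with the other libraries of its age, against 0.9947 to 0.9955 in the rest. Among E14 libraries, replicate 2 of the Setd1a+/- group had the lowest such mean, 0.982.

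Setd1a itself was counted in every library, in CPM, its count relative to the library's total, with totals scaled by the TMM method. Wild-type libraries read 129, 129.8, 136, 119 and 119 CPM at E14 and 93.4, 95.6, 94.6, 85.4 and 100 at E18. Setd1a+/- libraries read 150.2, 136, 128, 139.7 and 130.1 CPM at E14 and 104, 117, 96.9, 104 and 113 at E18. At P7, Setd1a lay at 70.2 to 76.2 CPM in wild-type and 76.4 to 83.7 CPM in Setd1a+/- libraries, without overlap. The ranges overlapped at P35 (81.7 to 91.7 and 88.2 to 91.9 CPM) and at P70 (81.6 to 92.0 and 76.6 to 97.8 CPM), where 2 Setd1a+/- libraries were below every wild-type library. The gene-level count takes in exons that the allele leaves in place and shares bases with the overlapping gene Gm49388, so it does not check the genotype labels. The study cites an earlier report that heterozygous mice had less Setd1a protein in the cortex than wild-type mice. Its log2 fold change with age as a covariate was 0.10 (SE 0.0251, adjusted p = 0.00679), and that of Gm49388 was 0.12 (SE 0.0228, adjusted p = 0.000511). Reads on their shared bases cannot be told apart.

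As a check of the labelled tissue, 8 neuronal markers summed to 1977 to 2649 CPM in E14 wild-type libraries and to 6619 to 7421 CPM at P70, and none of the 8 was at 0 in any library. Tubb3, a neuronal tubulin, was their most abundant gene up to P7 and Snap25, a presynaptic protein, from P35. Summed progenitor markers (7 genes) went from 1586 ± 217 CPM (SD, n = 5) in the E14 wild type to 90.8 ± 9.13 at P70. Oligodendrocyte markers (6 genes) went from 77.5 ± 8.46 CPM (SD, n = 5) to 3300 ± 251 over the same ages.

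In oxygen, prolyl hydroxylases mark the HIF alpha subunits for destruction by the VHL ubiquitin ligase. When oxygen falls, the subunits persist, pair with ARNT and bind short core letters beside genes for glucose use, blood vessel growth and mitochondrial turnover. In the embryonic cortex, VEGF-A released by neural cells guides the vessels that grow in from the surface.

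Genotype was tested for all 16330 expressed protein-coding genes at once, and a gene was called at an adjusted p under 0.05. With age as a covariate, 3 of the 10 members were called higher in Setd1a+/- cortex, against 0.68% of all tested genes. They were Ankrd37, Egln3 and Vegfa, and DESeq2 and limma-voom also called 3. The list was made with earlier results of these data known, so the shares here describe it and do not test it. At E14, edgeR called 0 of 10, against 0.129% of all genes, with 2 members at an unadjusted p under 0.05, as were 1895 of all 16330 genes. At E18, 1 of 10, Vegfa, was called higher, against 0.0429% of all genes, with 3 members and 1857 of all genes at an unadjusted p under 0.05. At P7, edgeR called 0 of 10, against 0.735%, with 1 member and 1447 of all genes at an unadjusted p under 0.05. At P35 it called 0 of 10, against 0%, with 0 members and 550 genes at an unadjusted p under 0.05. At P70 it called 0 of 10, against 0.233%, with 1 member and 1070 genes at an unadjusted p under 0.05. The joint edgeR test of the genotype by age interaction called 0 of 10, against 0%, with 1 member, Vegfa, and 1098 genes at an unadjusted p under 0.05. DESeq2 and limma-voom each called 1 member at E18 and 0 members at E14, P7, P35, P70 and for the interaction. Of all genes, DESeq2 called 11 at P35 and 21 for the interaction, where limma-voom called 0 and 0. DESeq2 called 128 at P7, 114 at E14, 111 at E18 and 77 at P70, and limma-voom 16, 26, 10 and 30 in that order.

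Signs ran one way in the embryonic comparisons. All 10 fitted log2 fold changes were above 0 at E14, with a median of 0.121, where 38.6% of all tested genes were above 0 and their median was -0.0287. That of Bnip3 was the smallest and fell below 0 without Setd1a+/- replicate 3 (-0.04), Setd1a+/- replicate 5 (-0.04) or wild-type replicate 3 (-0.02). At E18, all 10 were again above 0, with a median of 0.151, against 55.7% and a median of 0.0165 for all genes. With library size as the only scaling, the medians of all genes were 0.00374 at E14 and -0.021 at E18. In fits of the libraries of a single age they were 0.00202 and -0.000122, so the shares of all genes above 0 also depend on the fit. After birth, P7 had 6 of 10 above 0 (median 0.012), P35 had 7 (0.0237) and P70 had 7 (0.0139), against 48.5%, 52.2% and 51.4% of all genes. The 10 members were measured in the same libraries and are not independent measurements. They were also chosen with earlier results of these data known. In whole tissue, fewer cells of a type and less RNA per cell cannot be told apart.

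**Figure D1:**
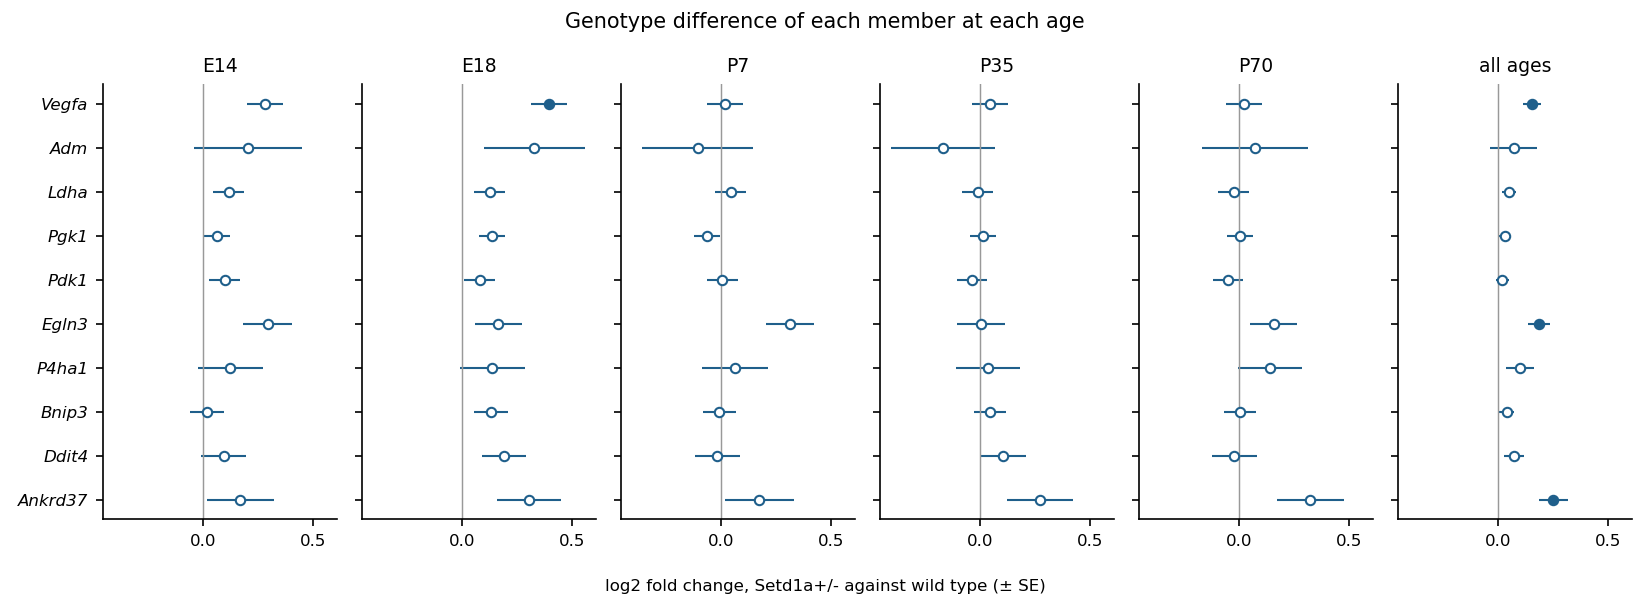
Each point is the fitted log2 fold change of 1 member, Setd1a+/- against wild type, with its standard error, at each age and with age as a covariate (all ages). Filled points are called at an adjusted p under 0.05, namely Vegfa at E18 (0.39) and Vegfa, Egln3 and Ankrd37 over all ages, and the 10 points of E14 and of E18 lie to the right of 0.

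Vegfa (ENSMUSG00000023951, chr17:46016993-46032369, minus strand of GRCm38) encodes the secreted growth factor VEGF-A. At E14, Vegfa read 77.7, 88.2, 70.8, 81.4 and 69.0 CPM in wild-type replicates 1 to 5 and 87.2, 94.5, 93.2, 84.9 and 111 CPM in Setd1a+/- replicates 1 to 5. At E18, Vegfa read 104, 136, 115, 138 and 115 CPM in wild-type libraries and 142, 148, 160, 187 and 159.5 CPM in Setd1a+/- libraries. All 5 Setd1a+/- libraries exceeded the highest wild-type library at E18, and 3 of 5 did at E14, where the groups overlapped. How many of all tested genes separate in this way was not counted at any age, so separation is not shown to be particular to single genes named here. The group means at E18 were 121.3 ± 14.8 and 159.5 ± 17.2 CPM (SD, n = 5). Vegfa had a log2 fold change of 0.39 at E18 (SE 0.0817, adjusted p = 0.0275) and of 0.28 at E14 (SE 0.0821, adjusted p = 0.117). Without Setd1a+/- replicate 1, the lowest but 1 of its group, Vegfa was called at E14 (0.31, adjusted p = 0.0444).

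The Vegfa call at E18 was lost when wild-type replicate 1 (adjusted p = 0.0867), wild-type replicate 3 (0.0677), Setd1a+/- replicate 4 (0.0911) or Setd1a+/- replicate 5 (0.0558) was left out. It was also lost in a fit of the E18 libraries alone (log2 fold change 0.38, adjusted p = 0.261) and with the RNA integrity number as a covariate (0.40, adjusted p = 0.141). RNA integrity was lower in the Setd1a+/- group at E18, and its part in the result was not tested beyond this covariate. Without the 2 libraries with Xist, the Vegfa value at E18 was 0.44 (adjusted p = 0.00702). The number of all genes called at E18 also depended on the fit, with 7 higher and 11 lower in the main fit, 77 in all without the 2 libraries with Xist, a still larger number also without P7 wild-type replicate 2, 1 with RNA integrity as a covariate and 0 in the E18 libraries alone.

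After birth the Vegfa groups overlapped. At P7, Vegfa read 97.1, 87.4, 99.2, 97.6 and 101.9 CPM in wild-type and 94.7, 95.0, 101, 96.2 and 102.2 CPM in Setd1a+/- libraries. At P35, Vegfa read 128, 104, 116, 111 and 104 CPM against 129.5, 125, 113, 106 and 107. At P70, Vegfa read 104, 103, 123, 102.4 and 122 CPM against 113, 113, 122, 119 and 97.5. The log2 fold changes were 0.02, 0.04 and 0.02 at these ages, with standard errors of 0.082, 0.0818 and 0.0819. The interaction of genotype with age had an adjusted p of 0.44 for Vegfa, so its E18 difference is not shown to differ from those at other ages. Over all ages, with age as a covariate, the Vegfa log2 fold change was 0.15 (SE 0.0418, adjusted p = 0.0199). Without the 2 libraries with Xist and P7 wild-type replicate 2, it was 0.14 and no longer called (adjusted p = 0.0504).

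The HIF core letters were searched in the 250 bases before each RefSeq transcript start of the members on GRCm38.p6, as ACGTG or GCGTG on either strand. The promoters of Vegfa, Ldha, Pgk1, Egln3 and Ankrd37 are printed, the called members and a pair of glycolytic genes, 5′ to 3′ on the strand of the gene. Capitals mark each match, so that a match on the other strand reads CACGT or CACGC. Vegfa has 2 starts in the table. The window of the outer one, chr17:46032378-46032627 on the minus strand, lies before the gene, covers no annotated exon and holds 0 matches, which says only that these letters are not in this window.
Vegfa: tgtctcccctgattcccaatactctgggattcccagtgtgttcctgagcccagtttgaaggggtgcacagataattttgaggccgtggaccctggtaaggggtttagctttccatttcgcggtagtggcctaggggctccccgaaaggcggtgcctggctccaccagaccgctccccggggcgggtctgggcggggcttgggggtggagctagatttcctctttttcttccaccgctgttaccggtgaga
The inner Vegfa start, chr17:46025164-46025413, has 218 bases of the gene's own exons in its window and holds 2 matches, 1 of each core.

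Adm (ENSMUSG00000030790, chr7:110627661-110629820) encodes adrenomedullin, a secreted peptide that widens blood vessels. It was the member with the fewest counts, 21 to 151 per library, so counting error adds to its spread. At E14, Adm read 2.03, 0.623, 0.806, 0.920 and 1.11 CPM in wild-type and 1.38, 1.26, 0.960, 1.36 and 1.33 CPM in Setd1a+/- libraries. At E18, Adm read 2.40, 2.02, 2.26, 2.79 and 2.60 CPM in wild-type and 3.44, 2.15, 3.47, 3.61 and 2.50 CPM in Setd1a+/- libraries. Replicates 1, 3 and 4 of the Setd1a+/- group exceeded all E18 wild-type libraries, and replicates 2 and 5 did not. Wild-type replicate 1 at E14 exceeded each of the other 9 libraries of its age. Adm had a log2 fold change of 0.20 at E14 (SE 0.246, adjusted p = 0.816) and of 0.33 at E18 (SE 0.23, adjusted p = 0.621). The E14 value of Adm rested on single libraries, with 0.54 without wild-type replicate 1, 0.06 without wild-type replicate 2 and 0.11 without wild-type replicate 3. After birth, Adm lay between 0.568 and 2.61 CPM with overlapping genotypes at each age.

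**Figure D2:**
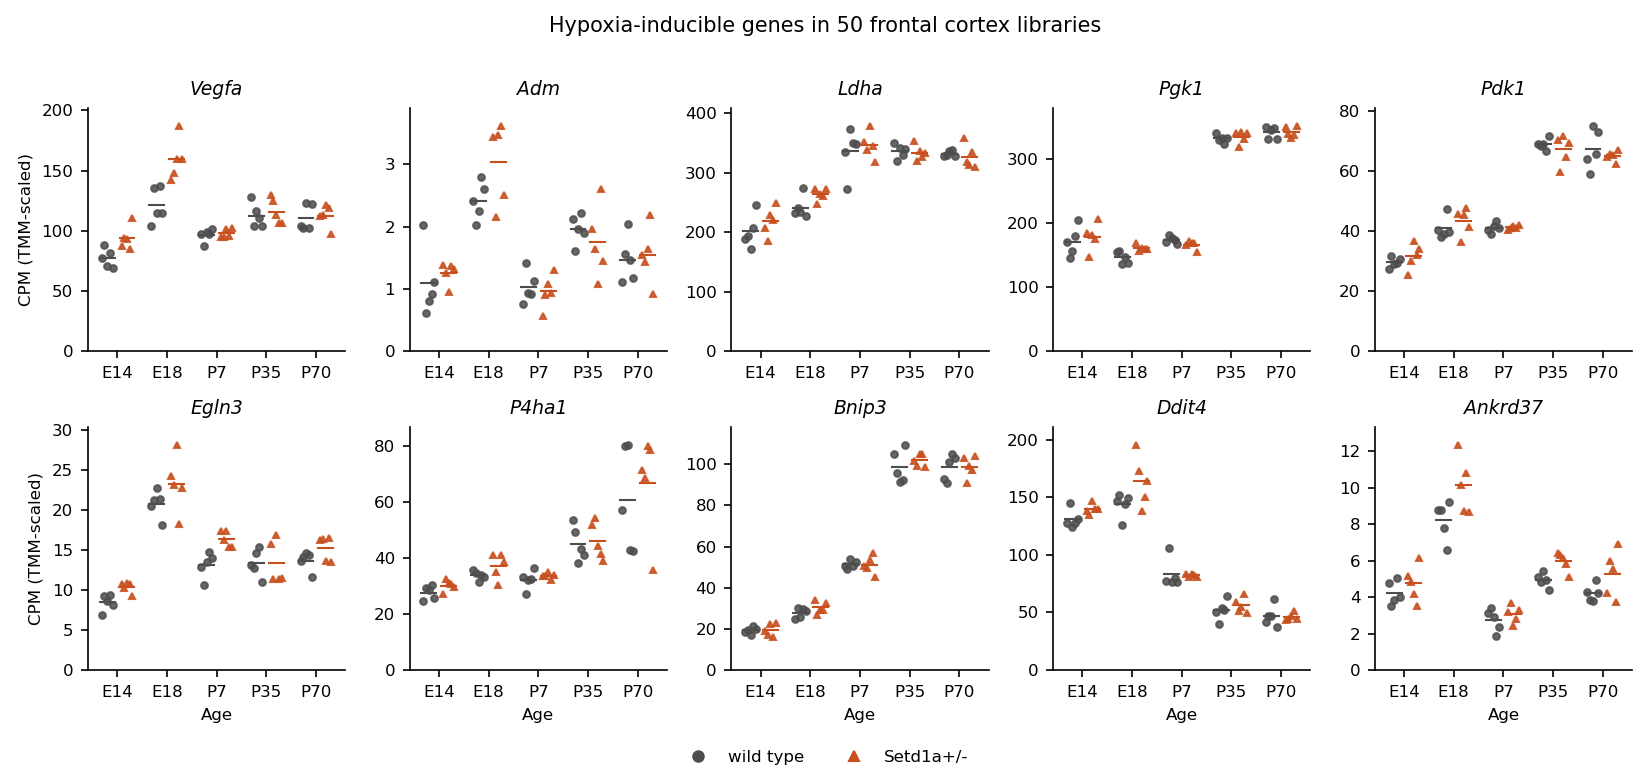
Values of the 10 members in all 50 libraries, in TMM-scaled CPM on linear axes from 0, by age, with bars at the group means. Vegfa separates by genotype at E18, Egln3 at P7, and the other pairs of groups overlap. The share of all tested genes whose groups separate was not counted.

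Glycolysis and pyruvate use were represented by Ldha, Pgk1 and Pdk1. Ldha (ENSMUSG00000063229, chr7:46841475-46855627) encodes the lactate dehydrogenase subunit that favours lactate. At E14, Ldha read 189, 193.2, 173, 207 and 246 CPM in wild-type and 207, 186, 229, 221 and 249.8 CPM in Setd1a+/- libraries. At E18, Ldha read 232, 241, 233, 274 and 228 CPM in wild-type and 272, 248, 265, 261 and 272 CPM in Setd1a+/- libraries. Wild-type replicate 4 at E18 was above every Setd1a+/- library, while the other 4 wild-type libraries were below every one. The highest E14 wild-type value belonged to replicate 5, a library with Xist. For Ldha the log2 fold change was 0.12 at E14 (SE 0.0708, adjusted p = 0.567) and 0.13 at E18 (SE 0.0707, adjusted p = 0.511). Leaving out 1 library moved the E14 value of Ldha between 0.06, without Setd1a+/- replicate 5, and 0.20, without wild-type replicate 5. Without the 2 libraries with Xist and P7 wild-type replicate 2, Ldha was called at E14 (0.20, adjusted p = 0.0388), in a fit that called 1164 of 16382 genes at that age, against 21 of 16330 with all libraries. At P7, Ldha lay at 318.8 to 378.7 CPM except in wild-type replicate 2, which read 273. At P35 and P70, values of Ldha lay between 310.1 and 358.3 CPM with overlapping genotypes.

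The Ldha window shown, chr7:46845554-46845803 on the plus strand, lies within the annotated ends of the gene and over none of its exons. It holds 5 matches, of which 4 are the CACGTG letters counted on both strands, since ACGTG read on each strand overlaps there. CACGTG is also the E-box that other factors bind.
Ldha: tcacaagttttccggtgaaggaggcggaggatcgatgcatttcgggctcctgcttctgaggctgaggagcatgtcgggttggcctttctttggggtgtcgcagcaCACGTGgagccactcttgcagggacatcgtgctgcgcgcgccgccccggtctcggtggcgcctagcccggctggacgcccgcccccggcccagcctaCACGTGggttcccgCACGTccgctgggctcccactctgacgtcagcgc
A further Ldha start, chr7:46846832-46847081, holds 1 match.

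Pgk1 (ENSMUSG00000062070, chrX:106187100-106203699) encodes phosphoglycerate kinase, an enzyme of glycolysis that makes ATP. At E14, Pgk1 read 170.4, 146, 156.5, 180.4 and 204.99 CPM in wild-type and 185, 148, 182, 175 and 207 CPM in Setd1a+/- libraries. At E18, Pgk1 read 156, 157.5, 136, 148 and 138 CPM in wild-type and 169, 156.6, 161.9, 161 and 159.3 CPM in Setd1a+/- libraries. At E18, 4 of 5 Setd1a+/- libraries were above every wild-type library. Wild-type replicate 2 of E18, a library with Xist, held the top wild-type value, and without it all 5 were above. The log2 fold change of Pgk1 was 0.06 at E14 (SE 0.0595, adjusted p = 0.75) and 0.14 at E18 (SE 0.0596, adjusted p = 0.367). Its E14 value ran from 0.01, without Setd1a+/- replicate 5, to 0.13, without wild-type replicate 5, when 1 library was left out. After birth the genotypes overlapped, at 156 to 181 CPM at P7 and 319.9 to 352 CPM at P35 and P70. The window before Pgk1, chrX:106186850-106187099 on the plus strand, ends at the first base before the gene and holds 1 match on each strand.
Pgk1: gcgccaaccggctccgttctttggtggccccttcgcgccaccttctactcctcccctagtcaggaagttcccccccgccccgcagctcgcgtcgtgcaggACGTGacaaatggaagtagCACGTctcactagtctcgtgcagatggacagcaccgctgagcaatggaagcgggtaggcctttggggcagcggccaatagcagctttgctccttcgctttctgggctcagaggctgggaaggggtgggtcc

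Pdk1 (ENSMUSG00000006494, chr2:71873224-71903858) encodes a kinase that switches off pyruvate dehydrogenase and so limits the conversion of pyruvate to acetyl-CoA. At E14, Pdk1 read 27.3, 31.7, 29.0, 29.3 and 30.7 CPM in wild-type and 25.3, 30.2, 36.9, 31.9 and 34.2 CPM in Setd1a+/- libraries. At E18, Pdk1 read 40.3, 38.2, 39.1, 47.3 and 39.8 CPM in wild-type and 45.6, 36.4, 45.3, 47.9 and 41.3 CPM in Setd1a+/- libraries. Setd1a+/- libraries held both the lowest and the highest value at each embryonic age. Pdk1 was not called, with a log2 fold change of 0.10 at E14 (SE 0.0705, adjusted p = 0.648) and 0.08 at E18 (SE 0.0698, adjusted p = 0.707). With 1 library left out, Pdk1 ranged from 0.04, without Setd1a+/- replicate 3, to 0.17, without Setd1a+/- replicate 1, at E14, and from 0.04 to 0.14 at E18. Wild-type replicate 4 at E18 was the highest of its group for Pdk1 as for Ldha. Its outer promoter holds 1 match.

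The hydroxylases were Egln3 and P4ha1. Egln3 (ENSMUSG00000035105, chr12:54178981-54203860, minus strand) encodes PHD3, a HIF prolyl hydroxylase that HIF itself induces. At E14, Egln3 read 6.87, 9.27, 8.56, 9.42 and 8.18 CPM in wild-type and 10.8, 10.3, 10.9, 10.8 and 9.23 CPM in Setd1a+/- libraries. At E18, Egln3 read 20.5, 21.3, 22.7, 21.3 and 18.1 CPM in wild-type and 24.2, 23.1, 28.1, 18.2 and 22.7 CPM in Setd1a+/- libraries. At both embryonic ages, 4 of 5 Setd1a+/- libraries were above every wild-type library, the exceptions being replicate 5 at E14 and replicate 4 at E18. At P7, Egln3 read 12.9, 10.6, 13.5, 14.7 and 14.01 CPM in wild-type and 17.3, 16.2, 17.4, 15.3 and 15.4 CPM in Setd1a+/- libraries. The P7 groups did not overlap, also without wild-type replicate 2, which held the lowest value. The share of all genes that separate at P7 was not counted. At P35, Egln3 read 13.1, 12.7, 14.6, 15.3 and 11.02 CPM against 15.7, 11.4, 16.8, 11.4 and 11.5 in Setd1a+/- libraries. At P70, Egln3 read 13.7, 14.1, 14.6, 14.3 and 11.6 CPM against 16.2, 16.4, 13.6, 16.5 and 13.5. Setd1a+/- replicates 1 and 3 were the high libraries at P35 and replicates 1, 2 and 4 at P70, and the genotypes overlapped at both ages.

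Egln3 was called with age as a covariate (log2 fold change 0.19, SE 0.0491, adjusted p = 0.0152). At single ages it was not called, with 0.29 at E14 (SE 0.11, adjusted p = 0.217), 0.16 at E18 (SE 0.106, adjusted p = 0.586) and 0.31 at P7 (SE 0.108, adjusted p = 0.23). At P35 its value was 0.00 (SE 0.109) and at P70 it was 0.16 (SE 0.108), and the interaction had an adjusted p of 0.967. With 1 library left out, the E18 value of Egln3 ran from 0.09, without Setd1a+/- replicate 3, to 0.24, without Setd1a+/- replicate 4. The window before Egln3, chr12:54203875-54204124 on the minus strand, lies before the gene and holds 1 match.
Egln3: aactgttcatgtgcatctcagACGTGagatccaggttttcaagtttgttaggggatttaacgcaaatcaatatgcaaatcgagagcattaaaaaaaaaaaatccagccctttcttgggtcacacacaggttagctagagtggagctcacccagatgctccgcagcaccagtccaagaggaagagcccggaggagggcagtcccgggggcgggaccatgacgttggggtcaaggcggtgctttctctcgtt

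P4ha1 (ENSMUSG00000019916, chr10:59323296-59373304) encodes a subunit of the enzyme that hydroxylates proline in collagen. At E14, P4ha1 read 24.6, 29.4, 28.7, 30.2 and 25.6 CPM in wild-type and 27.1, 32.4, 31.0, 30.6 and 29.8 CPM in Setd1a+/- libraries. At E18, P4ha1 read 35.7, 34.8, 31.3, 34.0 and 33.3 CPM in wild-type and 41.2, 34.8, 30.4, 41.1 and 38.6 CPM in Setd1a+/- libraries. The E18 Setd1a+/- group held the lowest library, replicate 3, and the 3 highest. At P70, P4ha1 read 57.2, 80.1, 80.5, 42.9 and 42.4 CPM in wild-type and 71.3, 68.4, 79.9, 78.4 and 35.9 CPM in Setd1a+/- libraries. The P70 libraries spread over a wider range than at any other age, from 35.9 to 80.5 CPM, and both genotypes held high and low animals. The log2 fold changes of P4ha1 were 0.13 at E14 (SE 0.149), 0.14 at E18 (SE 0.148) and 0.14 at P70 (SE 0.146), and none was called. Its promoter holds 3 matches.

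The remaining members act on mitochondria, on growth signalling, or have an unsettled role. Bnip3 (ENSMUSG00000078566, chr7:138890836-138909519, minus strand) encodes a mitophagy protein of the outer mitochondrial membrane. Its annotated exons share 22.3% of their bases with the antisense gene Gm45507, whose mean level was 31.5 CPM. Reads on the shared bases cannot be told apart, since counting ignored strand. At E14, Bnip3 read 18.5, 19.4, 17.1, 21.5 and 19.8 CPM in wild-type and 19.2, 17.1, 22.5, 16.1 and 22.7 CPM in Setd1a+/- libraries. At E18, Bnip3 read 24.7, 30.0, 25.8, 29.8 and 28.7 CPM in wild-type and 34.1, 26.8, 29.2, 29.4 and 32.8 CPM in Setd1a+/- libraries. The E14 Setd1a+/- libraries fell into 3 at or under 19.2 CPM and replicates 3 and 5 above every wild-type library. Bnip3 had a log2 fold change of 0.02 at E14 (SE 0.0774, adjusted p = 0.959) and 0.13 at E18 (SE 0.0759, adjusted p = 0.53). The E14 sign turned without Setd1a+/- replicate 3 (-0.04), Setd1a+/- replicate 5 (-0.04) or wild-type replicate 3 (-0.02). Its promoter, with 13 bases of its first exon, holds 5 matches, with 1 CACGTG counted on both strands.

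Ddit4 (ENSMUSG00000020108, chr10:59949669-59951834, minus strand) encodes REDD1, an inhibitor of mTORC1 that glucocorticoids and the integrated stress response also induce. At E14, Ddit4 read 127, 145, 124, 128 and 130.9 CPM in wild-type and 138, 135, 147, 140.1 and 139.8 CPM in Setd1a+/- libraries. At E18, Ddit4 read 146, 152, 126, 144 and 149 CPM in wild-type and 195.8, 172, 138, 150.1 and 164.4 CPM in Setd1a+/- libraries. At E18, Setd1a+/- replicates 1, 2 and 5 exceeded every wild-type library, and the groups overlapped. The log2 fold change of Ddit4 was 0.09 at E14 (SE 0.101, adjusted p = 0.787) and 0.19 at E18 (SE 0.1, adjusted p = 0.47). Leaving out Setd1a+/- replicate 1 or 3 gave the ends of the E18 range of Ddit4, 0.12 and 0.25. At P7, Ddit4 read 77.7, 106, 76.3, 80.0 and 76.4 CPM in wild-type and 83.5, 81.2, 83.3, 82.4 and 81.2 CPM in Setd1a+/- libraries. The high P7 value came from wild-type replicate 2, which stands apart in other ways, and the other 4 lay below every Setd1a+/- library. Its promoter window, with 64 bases of its first exon, holds 2 matches.

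Ankrd37 (ENSMUSG00000050914, chr8:45996902-46005707, minus strand) encodes an ankyrin repeat protein whose gene is a direct HIF target. Its exons share 26.4% of their bases with Ufsp2 and Lrp2bp on the other strand, so part of its count may belong to them. At E14, Ankrd37 read 4.79, 3.50, 3.85, 5.03 and 4.02 CPM in wild-type and 5.14, 4.83, 4.18, 3.54 and 6.13 CPM in Setd1a+/- libraries. At E18, Ankrd37 read 8.78, 8.77, 7.82, 6.57 and 9.21 CPM in wild-type and 12.4, 10.2, 8.75, 10.8 and 8.701 CPM in Setd1a+/- libraries. At E18, replicates 1, 2 and 4 of the Setd1a+/- group exceeded every wild-type library, while replicates 3 and 5 lay within the wild-type range. At P7, Ankrd37 read 3.13, 3.41, 2.90, 1.86 and 2.35 CPM in wild-type and 3.17, 3.70, 2.42, 2.79 and 3.32 CPM in Setd1a+/- libraries. At P35, Ankrd37 read 5.13, 4.81, 5.43, 4.93 and 4.42 CPM against 6.45, 6.33, 6.16, 5.80 and 5.10. At P70, Ankrd37 read 4.28, 3.87, 3.77, 4.97 and 4.25 CPM against 4.24, 5.99, 5.56, 3.75 and 6.90. At P35, 4 of 5 Setd1a+/- libraries were above every wild-type library, and at P70, 3 of 5 were, with overlap at each age.

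Ankrd37 was called with age as a covariate (log2 fold change 0.25, SE 0.0654, adjusted p = 0.0139). At single ages its values were 0.17, 0.30, 0.17, 0.27 and 0.32 from E14 to P70, with standard errors of 0.151, 0.146, 0.156, 0.15 and 0.152, and none was called. The E14 value of Ankrd37 lay between 0.06, without Setd1a+/- replicate 5, and 0.26, without Setd1a+/- replicate 4, when 1 library was left out. Its interaction of genotype with age was not called either. The overlapping gene Lrp2bp had a log2 fold change of 0.21 (SE 0.0704, adjusted p = 0.0842) with age as a covariate, and Ufsp2 one of -0.07 (SE 0.0288, adjusted p = 0.209). Their mean levels were 3.42 CPM for Lrp2bp and 25.5 CPM for Ufsp2. Which of Ankrd37, Lrp2bp and Ufsp2 gave the shared reads cannot be told apart. The window before Ankrd37 lies within the annotated ends of the gene. The bases chr8:45999868-46000100 on the minus strand are shown, with 17 untranslated exon bases next to the start left out, and they hold 3 of the 4 matches. In CACGCGTG, a match on each strand overlaps.
Ankrd37: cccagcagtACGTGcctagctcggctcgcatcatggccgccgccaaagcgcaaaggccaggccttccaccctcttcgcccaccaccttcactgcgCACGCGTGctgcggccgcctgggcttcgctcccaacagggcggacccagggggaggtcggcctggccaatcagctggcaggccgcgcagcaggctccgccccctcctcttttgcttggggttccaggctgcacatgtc

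Over the 13 RefSeq starts of the 10 members, 11 windows (84.6%) held ACGTG or GCGTG, as did 12679 (38.6%) of 32851 promoters of the same length genome-wide. Counting each gene by any of its starts, the shares were 10 of 10 members and 41.5% of all gene symbols. By the outermost start, 9 of 10 members held a match, and Vegfa did not. Windows with 4 or more matches were 3 of 13 (Ldha, Bnip3 and Ankrd37), against 2.58% of all promoters. In members and in all promoters alike, CACGTG was counted on both strands, which raises the numbers of Ldha and Bnip3. The members were named for known induction by hypoxia, so these shares describe the choice of genes, and a match is not a site.

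**Figure D3:**
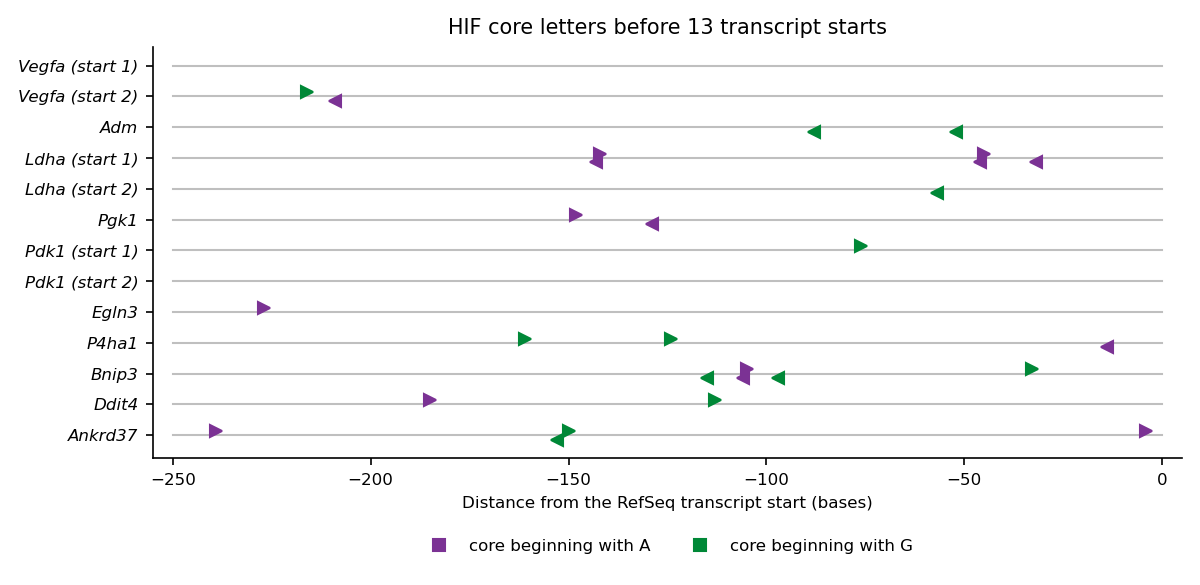
Positions of the HIF core letters in the 250 bases before each of 13 transcript starts, in bases from the start. Arrowheads point along the strand on which the core reads, and colour gives its first letter, A or G. The outer Vegfa start and the inner Pdk1 start hold 0.

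Library by library, each embryonic Setd1a+/- sample held most members above the mean of the wild-type libraries of its age. At E14 the number of members above it was 7, 7, 8, 8 and 10 in Setd1a+/- replicates 1 to 5. Wild-type replicates, each set against the other 4, held 3, 6, 2, 7 and 5. At E18 the numbers were 10, 7, 8, 9 and 10 in Setd1a+/- libraries and 5, 7, 1, 9 and 4 in wild-type libraries. So wild-type replicate 4 was as high as most Setd1a+/- libraries at E18, and the counts overlapped at both embryonic ages. After birth, the Setd1a+/- numbers were 5, 4, 8, 5 and 6 at P7, 10, 4, 8, 4 and 4 at P35 and 8, 4, 6, 6 and 4 at P70. Wild-type numbers were 4, 4, 7, 6 and 7 at P7, 8, 1, 7, 3 and 5 at P35 and 3, 4, 9, 7 and 4 at P70. How many of all genes lay above this mean was not counted by library. Deviations from a library's own group were averaged over the members, each in units of its SD, and among embryonic libraries this mean was highest in E14 Setd1a+/- replicate 5 (0.818) and E18 Setd1a+/- replicate 1 (0.769). It was lowest in E14 wild-type replicate 3 (-0.638) and E18 Setd1a+/- replicate 2 (-0.597).

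**Figure D4:**
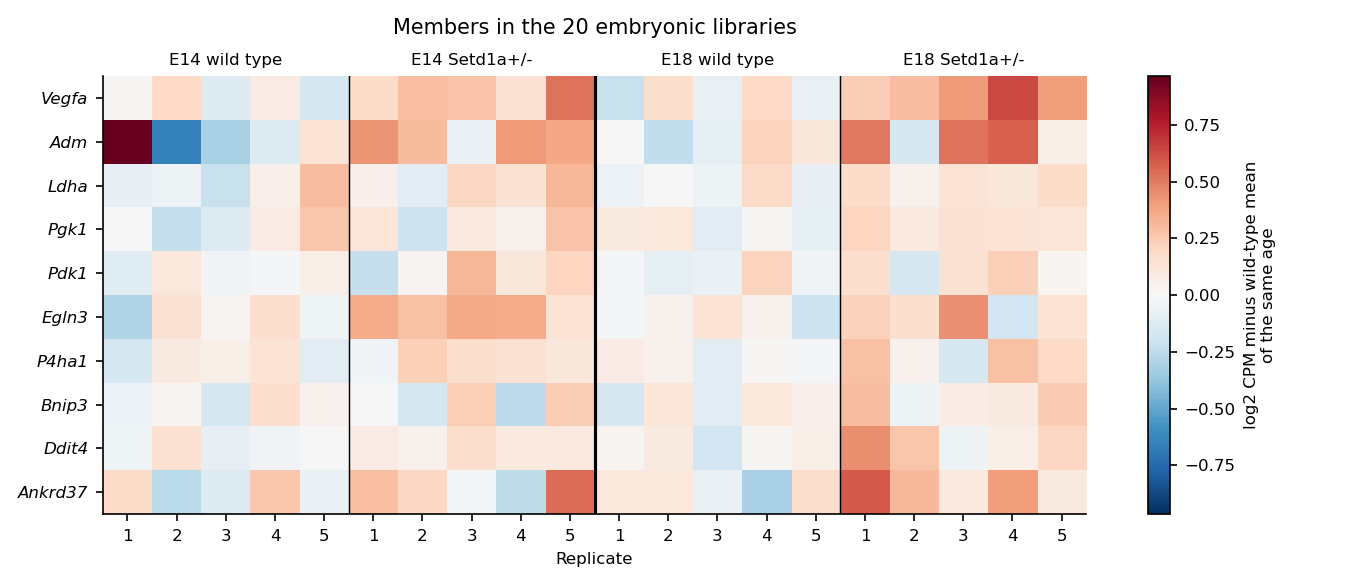
Log2 CPM of each member minus the mean of the wild-type libraries of the same age, in the 20 embryonic libraries, red above and blue below. E14 Setd1a+/- replicate 5 and E18 Setd1a+/- replicates 1 and 5 are above 0 for all 10 members.

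The members did not all move together between libraries. Over the 20 embryonic libraries, deviations from the group mean were correlated with the mean deviation of the 10 members, in which each member takes part. Pearson's r was 0.857 for Bnip3, 0.739 for Ldha, 0.633 for Pgk1, 0.59 for Pdk1, 0.444 for Vegfa, 0.437 for Ddit4, 0.371 for Ankrd37, 0.359 for P4ha1, 0.111 for Adm and -0.0828 for Egln3. Within single ages, r was 0.053 at E14 and 0.644 at E18 for P4ha1, and -0.0877 and 0.497 for Adm. It was higher at E14 for Vegfa (0.573 and 0.32) and Ankrd37 (0.468 and 0.234). The genes outside the 10 that followed this mean most closely were Dbi (0.88), Gm45871 (0.824), Yipf4 (0.787), Smim15 (0.787), Dars (0.778), Krt10 (0.773), Selenof (0.771), Med7 (0.765), Ccdc90b (0.764) and Tmem218 (0.764). Those that ran most opposite were Pprc1 (-0.832), Zfp362 (-0.808), Kctd10 (-0.799), Cerk (-0.795) and Flna (-0.766). Of 16316 ranked genes, 921 had an r above 0.5, as did 8 of 41 other HIF targets, and each value shares the same 20 libraries, their RNA quality and their composition. Among marker lists, r was above 0 for 0 of 7 endothelial (median -0.273), 7 of 7 erythroid (0.272) and 5 of 5 choroid plexus genes (0.267). It was above 0 for 4 of 8 neuronal (-0.0137), 5 of 7 progenitor (0.203) and 6 of 7 astrocyte markers (0.0879). Of oligodendrocyte and microglial markers, 2 of 6 in each list were above 0 (-0.0846 and -0.127). The median of all ranked genes was -0.00719. The part of these markers in the members' mean was not tested. Without the 2 libraries with Xist, r was 0.884 for Dbi and -0.896 for Pprc1.

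Fitted values of the blood and vessel marker lists had opposite signs at E14 and E18, with no gene of either list called. At E14, 7 of 7 endothelial markers had a log2 fold change above 0 (median 0.795), 0 of them called by edgeR and 6 at an unadjusted p under 0.05. Their summed level was 140.6, 144, 166, 135 and 201.9 CPM in wild-type and 143, 719, 143, 270 and 150.2 CPM in Setd1a+/- libraries. Replicates 1, 3 and 5 of the Setd1a+/- group lay within the wild-type range, and replicate 2 held the highest sum, with Cldn5, a tight junction gene, at 219 CPM. At E18, 0 of 7 were above 0 (median -0.602), 0 called and 5 at an unadjusted p under 0.05. The E18 sums were 331, 228, 476, 409 and 227 CPM in wild-type and 216, 183, 216, 255 and 220.2 CPM in Setd1a+/- libraries. No endothelial marker was at 0 in an embryonic library, and Cldn5 or Kdr was the most abundant in each. So 4 of 5 Setd1a+/- libraries at E18, where Vegfa was higher, had endothelial sums below every wild-type library. The receptor genes of VEGF-A, Kdr and Flt1, are among these markers.

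The 7 erythroid markers had log2 fold changes above 0 in 7 of 7 at E14 (median 0.532) and in 0 of 7 at E18 (median -0.599), with 0 called and 0 at an unadjusted p under 0.05 at either age. Their sums at E14 were 416, 326, 351, 525 and 1284 CPM in wild-type and 285, 800.2, 1019, 1025 and 1073 CPM in Setd1a+/- libraries, and at E18 187, 187, 367, 444 and 169 CPM against 224, 172, 228, 160 and 129.5. The globin gene Hbb-bs was usually the most abundant, and up to 2 of the 7 were at 0 in a library of E18. The 5 choroid plexus markers were above 0 in 4 of 5 at E14 and in 0 of 5 at E18 (median -3.71), with 0 called and 3 at an unadjusted p under 0.05 at E18. Their sums were 233 and 195.2 CPM in E18 wild-type replicates 3 and 4, led by Ttr, and 1.93 to 9.51 CPM in the other 8 E18 libraries, where up to 1 of 5 was at 0. At E14 the choroid plexus sums ran from 0.852 to 415 CPM in wild-type and from 1.92 to 475 CPM in Setd1a+/- libraries. The part of these markers in the Vegfa result was not tested.

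**Figure D5:**
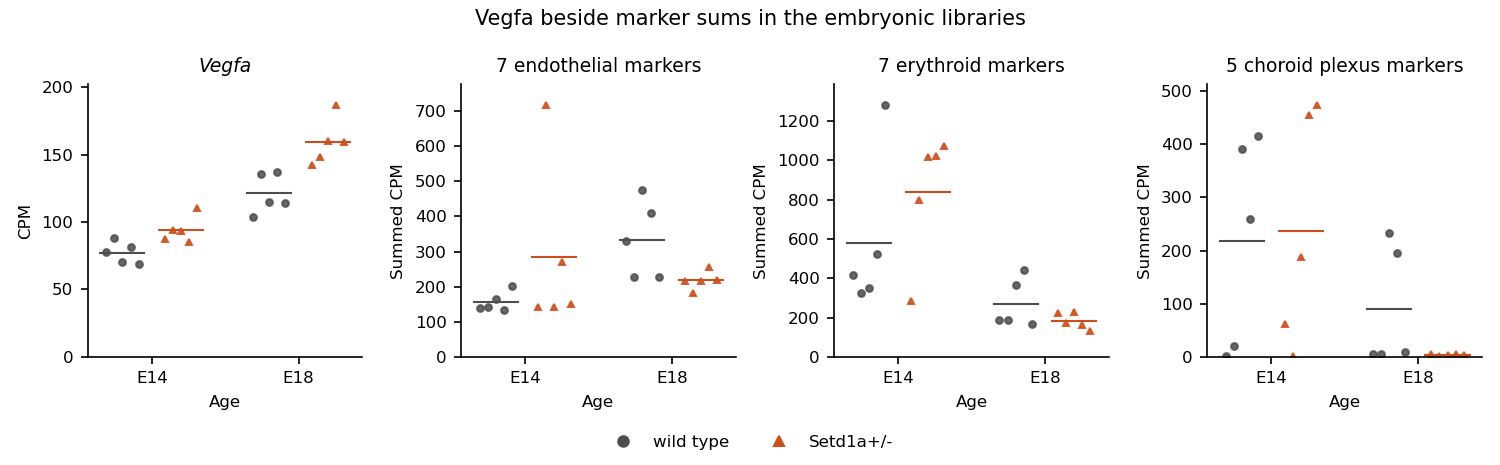
Vegfa in CPM beside the summed CPM of 7 endothelial, 7 erythroid and 5 choroid plexus markers in the 20 embryonic libraries, with bars at the group means. Vegfa separates the genotypes at E18, while 1 E14 Setd1a+/- library reaches 719 CPM of endothelial markers and 2 E18 wild-type libraries exceed 190 CPM of choroid plexus markers.

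The other marker lists held 0 called genes by genotype with edgeR at E14 and E18. At E18, genes with an unadjusted p under 0.05 were 1 of 8 neuronal, 1 of 7 progenitor, 2 of 7 astrocyte, 0 of 6 oligodendrocyte and 1 of 6 microglial markers. At E14 they were 0, 0, 1, 1 and 2. Neuronal markers were above 0 in 7 of 8 at E18 (median 0.101) and in 1 of 8 at E14 (median -0.112). In the same order, the other lists had 2, 3, 3 and 1 above 0 at E18 (medians -0.122, -0.00732, 0.0425 and -0.107) and 4, 3, 3 and 5 at E14 (medians 0.0333, -0.0104, 0.115 and 0.275). The part of these markers in the members' values was not tested. At P7, Mag (log2 fold change -2.14, adjusted p = 0.0122), Mbp (-1.47, adjusted p = 0.0177) and Ttr (-9.28, adjusted p = 0.0435) were called lower. In P7 wild-type replicate 2 the oligodendrocyte markers summed to 1326 CPM and the choroid plexus markers to 620.2, where the lowest sums of its group were 257 and 2.43. Without that library and the 2 with Xist, 9 of 16382 genes were called at P7.

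Among 41 other HIF targets, 3 were called higher with age as a covariate, against 0.68% of all tested genes, and 32 were above 0 (median 0.0511), against 50.9%. This list, too, was chosen with earlier results of these data known. The called genes were Gpi1, glucose-6-phosphate isomerase (0.12, SE 0.0303, adjusted p = 0.00902), Pfkl, phosphofructokinase (0.09, SE 0.0233, adjusted p = 0.00958), and Gbe1, the glycogen branching enzyme (0.16, SE 0.0446, adjusted p = 0.0247). At E14, 31 of 41 were above 0, against 38.6% of all genes, and edgeR called 0, with 6 at an unadjusted p under 0.05. At E18, 34 of 41 were above 0 (median 0.107), against 55.7%, and Gpi1 and Pfkl were called, with 10 at an unadjusted p under 0.05. At E18, Pfkl read 109.7, 113, 108, 122 and 115 CPM in wild-type and 140.4, 132.03, 133.3, 135 and 134 CPM in Setd1a+/- libraries, which did not overlap. Gpi1 read 224, 188, 171, 221 and 184 CPM against 268, 225, 272, 266 and 251, which did not overlap either. The nearest Gpi1 values of the groups were 223.72 CPM in wild-type replicate 1 and 224.97 CPM in Setd1a+/- replicate 2. Pfkl and Gpi1 were named for small adjusted p in this comparison, and the share of all genes that separate was not counted. Fold changes at E18 on the log2 scale were 0.38 for Gpi1 (SE 0.0546, adjusted p = 0.000268) and 0.25 for Pfkl (SE 0.046, adjusted p = 0.0124). Both calls were lost in a fit of the E18 libraries alone (adjusted p = 0.261 and 0.198), and that of Pfkl also with RNA integrity as a covariate (0.0756) or with library size as the only scaling (0.0623). The fold changes in these fits were 0.36 for Gpi1, and 0.23, 0.25 and 0.21 for Pfkl, with the same sign as before. Their interactions with age had adjusted p of 0.303 and 0.445. In the postnatal comparisons edgeR called 0 of the 41, and those at an unadjusted p under 0.05 were 2 (P7), 1 (P35) and 3 (P70). Values above 0 were 24 of 41 at P7, 33 at P35 and 25 at P70, against 48.5%, 52.2% and 51.4% of all genes, so the number at P35 lay between those at E14 and E18.

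The genes that sense oxygen and make up HIF did not show the same signs. Of 16 genes for HIF subunits, hydroxylases, the VHL ligase and coactivators, edgeR called 0 by genotype in any comparison, with 2 at an unadjusted p under 0.05 at each of E14, E18 and P7. The number above 0 was 4 of 16 at E14 and 7 of 16 at E18, against 38.6% and 55.7% of all genes, with medians of -0.0267 and -0.00324. Hif1a, the alpha subunit of most cells, is named for its role. It read 127.5, 125, 124, 139 and 144 CPM in E14 wild-type and 134, 114, 134, 124 and 139 CPM in Setd1a+/- libraries. At E18, Hif1a read 110, 120.6, 106, 99.9 and 108 CPM against 111, 107, 102.04, 109.6 and 105. Its groups overlapped at both ages, with log2 fold changes of -0.03 and -0.03. Epas1, the HIF2 alpha subunit found in vessels, read 107 CPM in E14 Setd1a+/- replicate 2 and 16.4 to 31.2 CPM in the other 9 E14 libraries. That is the library with 719 CPM of endothelial markers.

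Members respond to other stresses too, and lists for these were described. By genotype at E14 and E18, edgeR called 0 of 10 genes of the integrated stress response, 0 of 8 glucocorticoid-induced genes and 0 of 10 immediate early genes. Those at an unadjusted p under 0.05 were 1, 0 and 1 at E14 and 0, 1 and 0 at E18. Medians were 0.00849, 0.031 and 0.106 at E14 and 0.00765, 0.0168 and 0.0935 at E18. At E14, values above 0 were 6 of 10, 4 of 8 and 7 of 10, against 38.6% of all genes. At E18 they were 5 of 10, 6 of 8 and 7 of 10, against 55.7%. With age as a covariate they were 7 of 10, 4 of 8 and 9 of 10, against 50.9%, with 0 called in each list. Medians were then 0.0218, -0.00561 and 0.063, where that of the members was 0.0714. Of all 16330 genes, 0.129% were called at E14, and 7 higher and 11 lower at E18. So 0 called in lists of this size says little about other stresses.

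A step between consecutive ages was called at an adjusted p under 0.05 with an absolute log2 fold change of 1 or more. From E14 to E18, 3 of 10 were called higher, against 11.7% of all genes. These were Egln3 (1.23, SE 0.0775, adjusted p = 2.25e-18), Adm (1.20, SE 0.169, adjusted p = 2.47e-08) and Ankrd37 (1.03, SE 0.106, adjusted p = 9.45e-12). All 10 members had an unadjusted p under 0.05 for this step, as did 12240 of all 16330 genes, and Pgk1 alone was below 0 (-0.19). Ankrd37 was close to the threshold on size, and its step was not called, leaving 2 of 10, without E14 wild-type replicate 2, E14 Setd1a+/- replicate 4 or E18 Setd1a+/- replicate 1. Vegfa stood at 0.70 (SE 0.0581) for the step, Bnip3 at 0.58 (SE 0.0543) and Pdk1 at 0.46 (SE 0.0497). The overlapping gene Lrp2bp stood at 0.94 (SE 0.111) for the same step.

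From E18 to P7, 2 of 10 were called lower, against 5.02% of all genes. Ankrd37 fell by 1.65 on the log2 scale (SE 0.109, adjusted p = 5.14e-18) and Adm fell by 1.44 (SE 0.172, adjusted p = 4.08e-10). In this step Lrp2bp fell by 1.45 (SE 0.114), and the part of the shared bases in the Ankrd37 value was not tested. Ddit4 (-0.89, SE 0.0718), Egln3 (-0.59, SE 0.076) and Vegfa (-0.52, SE 0.058) passed the adjusted p but not the size. Bnip3 (0.82, SE 0.0535), Ldha (0.44, SE 0.05) and Pgk1 (0.14, SE 0.0421) had the opposite sign and also passed the adjusted p alone. In all, 8 of 10 members had an unadjusted p under 0.05, as did 12622 of all 16330 genes.

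From P7 to P35, edgeR, DESeq2 and limma-voom each called 0 of 10, against 19.5% of all genes, with 8 members at an unadjusted p under 0.05, as were 12621 of all 16330 genes. Pgk1 (0.97, SE 0.0424), Bnip3 (0.97, SE 0.0529), Ankrd37 (0.90, SE 0.109) and Adm (0.89, SE 0.173) lay just under the size asked for, and Ddit4 was at -0.61 (SE 0.0722). From P35 to P70, 0 of 10 were called by each tool, against 0.318%, with 2 at an unadjusted p under 0.05, as were 3902 of all 16330 genes. P4ha1 (0.48, SE 0.104, adjusted p = 0.00161) and Ddit4 (-0.22, SE 0.0725, adjusted p = 0.0467) passed the adjusted p but not the size.

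By mean level over both genotypes (n = 10 per age), Vegfa, Adm, Egln3, Ankrd37 and Ddit4 were highest at E18. Means there were 140.4 ± 25.2 CPM (SD) for Vegfa, 2.72 ± 0.583 for Adm, 22.0 ± 2.94 for Egln3, 9.20 ± 1.61 for Ankrd37 and 154 ± 19.4 for Ddit4. Ldha was highest at P7 (341 ± 29.9 CPM), within its spread of P35 and P70. Pgk1 and P4ha1 were highest at P70 (342 ± 8.04 and 63.7 ± 17.7 CPM), Pdk1 and Bnip3 at P35 (68.0 ± 3.58 and 100.4 ± 6.04). Pgk1 was close to this at P35 (334 ± 7.88), as were Pdk1 (66.2 ± 4.7) and Bnip3 (98.7 ± 5.53) at P70. For Pgk1, Pdk1 and Bnip3 the step from P35 to P70 did not pass the adjusted p. The means of Vegfa at E14, P7, P35 and P70 were 85.8, 97.3, 114 and 112 CPM.

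Levels between genes were compared in CPM per kilobase of exon. In the E14 wild type the order was Pgk1 (76.5 ± 10.2, SD, n = 5), Ddit4 (74.7 ± 4.67), Ldha (60.9 ± 8.32), Vegfa (18.1 ± 1.83), Bnip3 (8.51 ± 0.72), P4ha1 (6.73 ± 0.601), Pdk1 (3.80 ± 0.216), Egln3 (3.18 ± 0.385), Ankrd37 (2.75 ± 0.421) and Adm (0.678 ± 0.339). The ranges of Pgk1, Ddit4 and Ldha overlapped in turn, as did those of Pdk1, Egln3 and Ankrd37, and other neighbours were separate. In the E18 wild type Ddit4 led (81.9 ± 5.84), before Ldha (73.0 ± 5.59) and Pgk1 (65.6 ± 4.44), each overlapping the next. In the P70 wild type Pgk1 (152 ± 4.03), Ldha (100.3 ± 1.33) and Bnip3 (43.5 ± 2.78) led without overlap, and Ddit4 (26.7 ± 5.14) overlapped Vegfa (25.9 ± 2.49). Adm was lowest in all 10 groups.

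Steps with age in the other lists give the setting. Of the 41 other HIF targets, 4 were called higher and 1 lower from E14 to E18, 3 and 5 from E18 to P7, 8 and 4 from P7 to P35, and 0 from P35 to P70 with 13 at an unadjusted p under 0.05. Over all 16330 genes the numbers were 1916 higher and 818 lower, 1847 and 819, 1685 and 1497, and 24 and 28 in the same steps. Kdm3a, a histone demethylase, fell by 1.32 from E18 to P7 (SE 0.0506, adjusted p = 3.27e-26) and Pfkfb3 by 1.15 (SE 0.0992, adjusted p = 3.22e-14), and Pfkp was at 1.14 (SE 0.112, adjusted p = 1.82e-12). From E14 to E18, Bhlhe40 was at 1.87 (SE 0.183), Pfkp at 1.38 (SE 0.113) and Hk2 at -1.28 (SE 0.103). From P7 to P35, Car12 was at 2.76 (SE 0.284), Lox at -2.28 (SE 0.405) and Angptl4 at -2.17 (SE 0.234). Of the 16 genes of the HIF machinery, 1, Epas1, was called in a step, higher from E18 to P7 (1.21, SE 0.179, adjusted p = 6.62e-08). From E18 to P7, 1 of 10 integrated stress response genes was called higher, 1 of 8 glucocorticoid-induced genes higher (Klf9) and 1 lower (Fkbp5), and 6 of 10 immediate early genes higher.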

How the data were processed

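Gene-level fragment counts of 50 libraries were used as deposited. The authors made these raw counts by trimming with Trimmomatic, aligning to GRCm38 with STAR and counting exon fragments with featureCounts 1.4.6-p2 on the Ensembl release 102 annotation, per the file headers, without strand and counting a fragment for every gene it overlapped. Protein-coding genes (GENCODE vM21) were filtered with filterByExpr over the 10 age and genotype groups, which left 16330. In edgeR 4.0.16 (R 4.3.3), TMM scaling and quasi-likelihood tests gave genotype with age as a covariate, genotype at each age, steps between consecutive ages and the genotype by age interaction, with Benjamini-Hochberg adjustment over all tested genes. A standard error is the fold change divided by the square root of F. Log2 CPM used a prior count of 2. DESeq2 1.42.0 and limma 3.58.1 (voom) were alternatives, beside other scalings, filters, covariates and left-out libraries. Depth of 35507165 to 43907318 counts limits precision mainly for Adm. The calling steps were also run on simulated counts, with changes larger than the genotype differences of the called members. That run does not show how reliably differences of the members' size are called.

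The members and the lists (other HIF targets, HIF machinery, integrated stress response, glucocorticoid-induced, immediate early and 8 cell type marker lists) were chosen with earlier results of these data known. From a list, up to 5 genes with the smallest adjusted p per genotype comparison and up to 3 called genes with the largest change per age step were eligible to be named, besides Setd1a, the genes most and least like the members, genes that share exon bases, and the most abundant markers. Promoters came from RefSeq on GRCm38.p6, where all 10 members matched. Figures were drawn with Python 3.11.15 and matplotlib 3.10.9.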

Additional observations from a re-analysis of the deposited data

Results flagged for a closer look

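In 5 of 110 groups of 5 libraries, covering the 10 members and Setd1a, 1 value lay far from the other 4, with its gap to the nearest above 0.71 of the group's range. Chance flags about 1 in 20 groups, so this number is close to what chance gives.

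Adm read 0.9597 CPM in E14 Setd1a+/- replicate 3, below 1.26 to 1.38 in the others. Ldha read 273.6 CPM in E18 wild-type replicate 4, above 228 to 241, and Pdk1 read 47.32 CPM in the same library, above 38.2 to 40.3. P4ha1 read 35.88 CPM in P70 Setd1a+/- replicate 5, below 68.4 to 79.9. Ddit4 read 106 CPM in P7 wild-type replicate 2, above 76.3 to 80.0. That library also stood apart over all genes. What set these values apart was not tested.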

How the results depend on the processing

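Beside the reported fit, 17 alternatives were run and 50 libraries were left out in turn. The 3 members called with age as a covariate remained 3 in number in all 50 leave-outs. With at least 10 CPM in 5 libraries the number was 2 (Egln3 and Vegfa), as Ankrd37 was then not tested. Without the 2 libraries with Xist and P7 wild-type replicate 2 it was also 2 (Ankrd37 and Egln3). At an adjusted p under 0.01 the number was 0, and for E18 it was also 0, by the stricter threshold itself. At E18, Vegfa kept its direction in every alternative, with values from 0.36 to 0.44 and adjusted p from 0.00287 to 0.261. The number called at E18 was 0 with RNA integrity as a covariate and 0 with only the libraries of E18, where fewer samples estimate the spread. Leaving out 1 library gave 0 to 1 called at E18 (Vegfa 0.33 to 0.44) and 0 to 1 at E14.

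Without the 2 libraries with Xist and P7 wild-type replicate 2, an alternative added after seeing the data, 1 member (Ldha) was called at E14. The cause was not tested. With at least 10 CPM in 5 libraries, the step from E14 to E18 called 1 and that from E18 to P7 called 0, since Adm and Ankrd37 were then not tested. Bnip3 at E14 had the opposite sign without Setd1a+/- replicate 3 (-0.03637), wild-type replicate 3 (-0.02067) or Setd1a+/- replicate 5 (-0.0411), over a range of -0.0411 to 0.08084. The cause was not tested. Numbers called at P7, P35 and P70, from P7 to P35, from P35 to P70 and for the interaction were 0 in every alternative run.

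Replicate numbers were tested as pairs: deviations of same-numbered libraries of an age correlated above 0.1 in 9 of 25 pairs (-0.204 to 0.46). Of the 25, 7 matched best with their own number, so the number was not taken as a pairing in the main fit. The study's methods describe postnatal animals as littermates. The labels do not name litters, so whether same-numbered animals shared one was not tested. With the replicate block, Vegfa at E18 was 0.40 (adjusted p = 0.0263), and the numbers called were 3 with age as a covariate, 0 at E14, 1 at E18, 0 at P7, P35 and P70, 3 from E14 to E18, 2 from E18 to P7, and 0 in the later steps and the interaction.

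Limits remain. Each group holds 5 animals, and calls at E18 rest on a spread estimated over all ages. RNA integrity differed by genotype at E18, and sums of vessel, blood and choroid plexus markers varied between embryonic libraries. Counting ignored strand, which bears on Bnip3 and Ankrd37. Adm had as few as 21 counts in a library. Messenger RNA levels do not measure HIF protein or oxygen.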
